A study of Mus musculus with 12 samples.

Results

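Lactate and glucose move between blood, glia and neurons through a small set of carriers, and 8 genes of that system were read out here of the 21872 gene symbols in the deposited table. They were chosen by symbol: the monocarboxylate carriers Slc16a1, Slc16a3 and Slc16a7, their membrane chaperone Bsg, the lactate dehydrogenase subunits Ldha and Ldhb, and the glucose carriers Slc2a1 and Slc2a3. The set was drawn up around the known lower level of Slc16a1 in lesioned prefrontal cortex, so that difference chose the members and is given as a description. The lesion values of the other 7 genes in prefrontal cortex come from the same contrast and are given in the same way. All 8 genes passed the filter on low counts and were among the 14545 genes tested.

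The groups were striatum of mice lesioned with 6-hydroxydopamine (6-OHDA), striatum of control mice, prefrontal cortex of lesioned mice and prefrontal cortex of control mice, with 3 libraries each. All mice, lesioned and control, were of the C57BL/6J strain and were sampled at postnatal day 24. 6-OHDA is a toxin taken up by catecholamine neurons, and the study used lesioned mice as a model of the attention disorder ADHD, the name the labels give the lesioned group. The labels state neither the dose, route and day of the toxin nor what control mice received. Nothing there tells whether each library is a different mouse, so p-values measure the spread between libraries, which may be technical.

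Astrocytes and vessel cells take up glucose largely through the carrier encoded by Slc2a1, and neurons through the one encoded by Slc2a3. Glycolysis yields pyruvate, which lactate dehydrogenase interconverts with lactate. In the brain the monocarboxylate carrier MCT1 (Slc16a1) is found in endothelial cells, astrocytes and oligodendrocytes, the low-affinity MCT4 (Slc16a3) in astrocytes, and the high-affinity MCT2 (Slc16a7) mostly in neurons. MCT1 and MCT4 need basigin, the product of Bsg, to reach the cell surface.

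Total counts lay between 15078631 and 20925452 per library. A member had from 32 to 8498 counts in a library, and 545 or more when Slc16a3 is left out. A floor of 3 counts corresponds to 0.143 to 0.199 CPM (counts scaled to a fixed library total), and covers counting error only. Markers separated the regions: 6 cortical excitatory neuron genes summed to 19.2 to 861 normalised CPM in striatal libraries and 2401 to 2665 in prefrontal ones, and 10 striatal projection neuron genes to 1813 to 9487 in striatal libraries and 408 to 956 in prefrontal ones. Genes of the hypothalamus and bordering neurons summed to 146 to 487 normalised CPM in striatal libraries and 11.02 to 16.6 in prefrontal ones. Lesioned striatal library 1 had the highest sum of projection neuron genes, 9487. Control striatal library 2 had the lowest, 1813, with 2125 for choroid plexus and ependyma genes, where the other 5 striatal libraries had 50.8 to 100.1. The sum of 861 for cortical excitatory neuron genes was also of control striatal library 2, where the other 5 had 19.2 to 262. These 2 libraries had stood apart in earlier work on these data, and striatal results are also given without them where that changes a call or a sign, and for Slc16a1 and Bsg. The biological coefficient of variation was 15.1% in striatum and 5.81% in prefrontal cortex.

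Transcription of several of these genes is known to respond to hypoxia through a factor that binds a core of ACGTG, so the promoters were read for it. RefSeq promoters on GRCm38, from 250 bases before to 50 bases after the start, were at hand for 5 of the 8 members with 6 starts in all. ACGTG on either strand lay in 4 of these 6 promoters, those of Slc16a1, Slc16a3, Slc2a1 and the first start of Ldha, against 19.6% of 32851 promoters of 300 bases. The GC content was 65.3% to 73.7% in these 4, 56.7% at the second start of Ldha and 57.3% for Ldhb. The share over all promoters was not matched for GC content, so it gives no measure of enrichment. The 3 shown are those of the carrier the results turn on, of its hypoxia-responsive relative and of the enzyme that makes lactate, 5′ to 3′ on the strand of the gene, with ACGTG or its complement CACGT in capitals.
Slc16a1 (chr3:104638414-104638713, plus strand): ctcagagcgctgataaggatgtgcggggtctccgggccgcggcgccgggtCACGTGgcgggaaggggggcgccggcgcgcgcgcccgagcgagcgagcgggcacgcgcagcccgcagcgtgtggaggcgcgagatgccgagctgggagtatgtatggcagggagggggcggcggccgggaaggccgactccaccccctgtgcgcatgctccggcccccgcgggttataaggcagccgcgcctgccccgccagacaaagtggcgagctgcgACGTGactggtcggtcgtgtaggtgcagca
Slc16a3 (chr11:120948817-120949116, plus strand): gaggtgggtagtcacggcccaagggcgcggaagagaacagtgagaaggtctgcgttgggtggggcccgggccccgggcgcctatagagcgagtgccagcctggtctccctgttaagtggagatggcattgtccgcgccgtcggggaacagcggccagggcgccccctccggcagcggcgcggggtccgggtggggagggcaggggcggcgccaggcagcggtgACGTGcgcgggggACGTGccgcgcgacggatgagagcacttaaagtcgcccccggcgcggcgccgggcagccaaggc
Ldha (chr7:46845554-46845853, plus strand): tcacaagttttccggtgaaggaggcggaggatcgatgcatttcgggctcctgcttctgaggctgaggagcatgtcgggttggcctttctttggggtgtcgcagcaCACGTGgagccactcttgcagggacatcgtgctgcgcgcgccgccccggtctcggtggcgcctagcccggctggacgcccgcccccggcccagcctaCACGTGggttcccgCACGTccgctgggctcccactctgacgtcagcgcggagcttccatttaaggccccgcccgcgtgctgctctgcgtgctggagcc
The Slc16a1 promoter holds the match in 2 places, 1 of which is the palindrome CACGTG, a motif that other factors bind too. A match is a description of these letters, not a site in use.

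**Figure D1:**
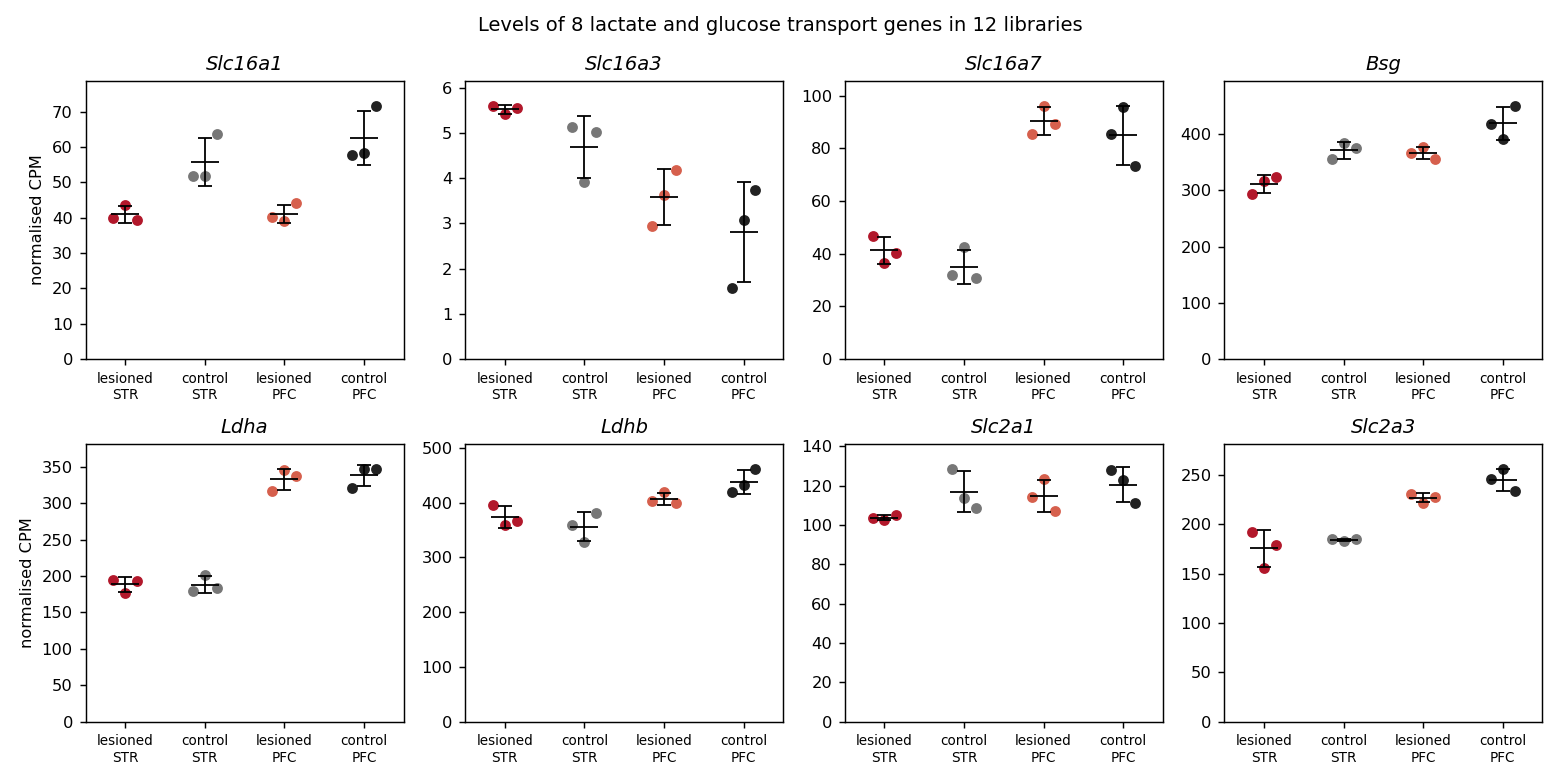
Normalised CPM (counts scaled to the effective library size) of each gene in the 12 libraries of striatum (STR) and prefrontal cortex (PFC); points are libraries, horizontal lines with bars are means ± SD of 3 libraries. Slc16a1 lay at 39.1 to 44.1 in the 6 lesioned libraries and at 51.7 to 71.5 in the 6 controls.

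Slc16a1, on chromosome 3 at 104638668 to 104658462 (plus strand, GRCm38), was lower after the lesion in both regions. In prefrontal cortex it had 40.2, 39.1 and 44.1 normalised CPM in lesioned libraries, against 57.8, 58.4 and 71.5 in controls. In striatum it had 40.0, 43.6 and 39.3 normalised CPM in lesioned libraries, against 51.7, 51.8 and 63.6 in controls. No lesioned library reached the lowest control of its region. The means were 41.1 ± 2.60 normalised CPM in lesioned and 62.6 ± 7.77 in control prefrontal cortex, and 40.9 ± 2.32 in lesioned and 55.7 ± 6.80 in control striatum (SD, n = 3 each). The log2 fold change was -0.61 (SE 0.08) in prefrontal cortex, a ratio of 0.653, and -0.45 (SE 0.10) in striatum, a ratio of 0.732. In bulk tissue, fewer cells that express the gene and less RNA in each cell cannot be told apart.

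In the striatal libraries the difference in Slc16a1 had an unadjusted p of 0.00308 in edgeR's quasi-likelihood test. It did not pass after adjustment over all genes (adjusted p = 0.172). Earlier results of these data, striatal libraries included, were known when the members were chosen, so this is not an independent test. With DESeq2 the adjusted p was 0.0270 and in an edgeR fit of all 12 libraries 0.0309. Over the 16 alternatives the fold change lay between -0.51 and -0.35 and the adjusted p between 0.0270 and 0.348. Without lesioned library 1 and control library 2, the 2 striatal libraries set apart, the log2 fold change was -0.48 (adjusted p = 0.126).

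Bsg, on chromosome 10 at 79704491 to 79711969 (plus strand), followed the same order at a smaller size. In prefrontal cortex it had 367, 377 and 357 normalised CPM in lesioned libraries, against 417, 390.4 and 449 in controls. In striatum it had 293, 316 and 324 in lesioned libraries, against 355, 384 and 374 in controls. The groups did not overlap in either region. The log2 fold change was -0.20 (SE 0.05) in prefrontal cortex and -0.26 (SE 0.08) in striatum, where the adjusted p was 0.213. The prefrontal call was lost without lesioned library 1 (log2 fold change -0.21, adjusted p = 0.128), 2 (-0.22, 0.120) or 3 (-0.18, 0.169), and without control library 1 (-0.20, 0.0831) or 3 (-0.15, 0.0977). It was also lost with limma-voom (adjusted p = 0.0880) and with the multiples of 11 kept (adjusted p = 0.0819). In the fit of all 12 libraries the values were -0.19 in prefrontal cortex (adjusted p = 0.311) and -0.26 in striatum (adjusted p = 0.0472). Without the 2 striatal libraries set apart, Bsg had a striatal log2 fold change of -0.19 (adjusted p = 0.283).

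**Figure D2:**
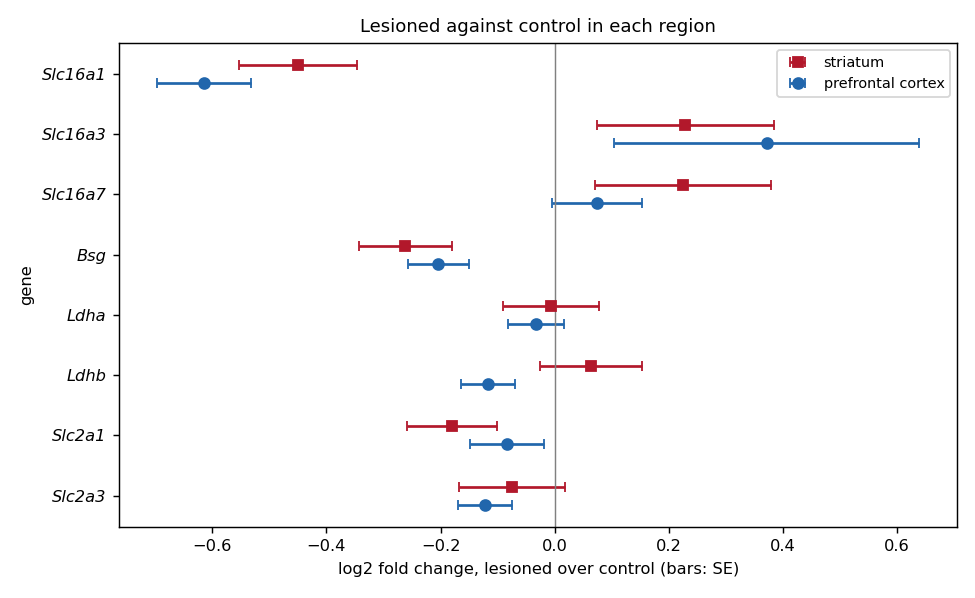
Log2 fold change of lesioned over control libraries for each gene in striatum (squares) and prefrontal cortex (circles), with bars of 1 SE. Slc16a1 lay at -0.45 and -0.61 and Bsg at -0.26 and -0.20, and Slc16a3 and Slc16a7 lay above 0 in both regions.

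The other monocarboxylate carriers were not called in either region, and their mean levels lay above those of controls. Slc16a7, on chromosome 10 at 125219270 to 125389465 (minus strand), had 85.6, 96.0 and 89.3 normalised CPM in lesioned prefrontal cortex, against 85.6, 95.9 and 73.4 in controls. In striatum it had 46.9, 36.5 and 40.3 in lesioned libraries, against 31.8, 42.6 and 30.9 in controls. Lesioned and control libraries overlapped in both regions, with log2 fold changes of 0.07 (SE 0.08) in prefrontal cortex and 0.23 (SE 0.15, adjusted p = 0.469) in striatum. The prefrontal value was -0.02 without control library 3. Slc16a3, on chromosome 11 at 120948480 to 120960868 (plus strand), was the lowest of the 8. It had 5.59, 5.41 and 5.56 normalised CPM in lesioned striatum, against 5.13, 3.91 and 5.02 in controls, a small gap without overlap (log2 fold change 0.23, SE 0.16, adjusted p = 0.466). In prefrontal cortex its lesioned libraries had 56, 60 and 69 counts and its controls 32, 48 and 55, and the normalised values overlapped (0.37, SE 0.27). That value was 0.06 without control library 1 and 0.64 without control library 3.

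Neither dehydrogenase subunit was called after the lesion. Ldha, on chromosome 7 at 46841475 to 46855627 (plus strand), encodes the subunit that favours lactate, and had 317, 345 and 337 normalised CPM in lesioned prefrontal cortex, against 321, 346 and 347 in controls. In striatum it had 195, 177 and 194 in lesioned libraries, against 179.8, 201 and 184 in controls. Its log2 fold changes were -0.03 (SE 0.05) in prefrontal cortex and -0.01 (SE 0.08, adjusted p = 0.976) in striatum, where the sign turned in 6 of 16 alternatives. Ldhb, on chromosome 6 at 142490249 to 142507957 (minus strand), encodes the subunit that favours pyruvate, and had 402, 419 and 399 normalised CPM in lesioned prefrontal cortex, against 419.8, 432 and 461 in controls. That is a gap of under 1 CPM between the nearest libraries (log2 fold change -0.12, SE 0.05). In striatum Ldhb overlapped, with 396, 359 and 366 in lesioned libraries, against 359, 328 and 381 in controls (0.06, SE 0.09, adjusted p = 0.730).

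Ldha made up 45.0 ± 0.85% of the counts of both subunits in lesioned prefrontal cortex and 43.6 ± 0.83% in controls. In striatum the share was 33.5 ± 0.93% in lesioned libraries and 34.6 ± 2.97% in controls (SD, n = 3 each). Wilson intervals of 95% on the counts of a library reached at most 0.992 points to either side. The two-sided exact permutation p was 0.2 in prefrontal cortex and 0.8 in striatum, and 3 libraries against 3 cannot give less than 0.1. Control striatal library 2 had a share of 38.03%, above the 32.5% to 34.6% of the other 5 striatal libraries. It also had the highest striatal sum of cortical excitatory neuron genes, 861 normalised CPM. Without this library the striatal difference in share, lesioned minus control, was 0.575 points in place of -1.12. The part of cortical tissue in the share of control striatal library 2 was not tested.

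Neither glucose carrier was called after the lesion. Slc2a1, on chromosome 4 at 119108711 to 119137983 (plus strand), had 103, 103 and 105 normalised CPM in lesioned striatum, against 128.5, 114 and 109 in controls. These did not overlap, and the difference did not pass (log2 fold change -0.18, SE 0.08, adjusted p = 0.296). In prefrontal cortex it had 114, 123 and 107 in lesioned libraries, against 128, 123 and 111 in controls, which overlapped (-0.08, SE 0.06). Slc2a3, on chromosome 6 at 122727809 to 122801640 (minus strand), had 231, 222 and 228 normalised CPM in lesioned prefrontal cortex, against 245, 256 and 233 in controls, which did not overlap (-0.12, SE 0.05). Its striatal libraries overlapped, with 192, 155 and 179 after the lesion, against 185, 183 and 185 in controls (-0.08, SE 0.09, adjusted p = 0.691).

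Counted together, 2 of the 8 members, Slc16a1 and Bsg, were called in prefrontal cortex, both lower. The members were chosen with this contrast known. Of all genes tested there 5.53% were called, 3.35% higher and 2.18% lower. In striatum edgeR called 0 of the 8, where 0.0275% of all genes were called, 0.00688% higher and 0.0206% lower. There 2 of the 8 had an unadjusted p below 0.05, as did 17.2% of all genes. DESeq2 called 1 of the 8 and 3.60% of all genes, and limma-voom 0 of the 8 and 1.27% of all genes. Lesioned and control libraries did not overlap in 4 members in prefrontal cortex, all lower, against 24.9% of all genes, 10.9% lower and 14.0% higher. In striatum they did not overlap in 4 members, 3 lower and 1 higher, against 25.7% of all genes, 12.7% lower and 13.0% higher. Slc16a1 and Bsg were lower without overlap in both regions, as were 3.05% of all genes.

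The lesion effects of the members were compared between regions in 1 fit of all 12 libraries. The difference, striatum minus prefrontal cortex, was 0.16 on the log2 scale for Slc16a1 (SE 0.15) and -0.06 for Bsg (SE 0.10). The largest was 0.17 for Ldhb (SE 0.10, adjusted p = 0.529). None of the 8 was called by edgeR, DESeq2 or limma-voom, beside 0.0825%, 0.804% and 0% of all genes in that order. The edgeR calls were 0.0138% of all genes higher and 0.0688% lower. With edgeR 0 of the 8 had an unadjusted p below 0.05, beside 11.7% of all genes. An approximate 2 SE around these differences includes 0 for each member, and does not show that the regions respond alike.

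Marker genes of cell types known to express Slc16a1 were read in the same libraries. Of all genes tested, 2.18% were called lower and 3.35% higher in prefrontal cortex, and 0.0275% were called in striatum. The summed level of 12 endothelial markers was 370 to 387 normalised CPM in lesioned prefrontal cortex and 425 to 466 in controls, and 303 to 342 in lesioned striatum and 370.4 to 402 in controls, without overlap in either region. In prefrontal cortex 4 of the 12 fell and 0 rose: the tight junction gene Cldn5 (log2 fold change -0.46, SE 0.09), the organic anion carriers Slco1c1 (-0.59, SE 0.06) and Slco1a4 (-0.31, SE 0.05), and the lipid carrier Mfsd2a (-0.49, SE 0.09). The angiogenic receptor Flt1 (0.15, SE 0.05) and the surface antigen Ly6a (0.13, SE 0.09) were above control without overlap and were not called. The median of the list was -0.14 in prefrontal cortex and -0.20 in striatum, where 0 of 12 were called. Of 11 astrocyte markers 7 fell in prefrontal cortex and 0 rose, with summed levels of 5388 to 5557 in lesioned libraries and 5960 to 6369 in controls. In striatum 0 of the 11 were called and the sums overlapped, at 4453 to 5264 in lesioned and 5108 to 5270 in control libraries. Of 8 markers of oligodendrocyte precursors and committed cells, Olig2 (-0.34, SE 0.09) and Enpp6 (-0.61, SE 0.15) fell in prefrontal cortex and 0 rose. The sums of this list overlapped in both regions, at 375 to 408 in lesioned and 406 to 489 in control prefrontal cortex, and 576 to 735 in lesioned and 672 to 765 in control striatum. None of the markers in these 3 lists was at 0 in any of the 12 libraries. The sums of 9 mature oligodendrocyte genes overlapped in both regions. They were 5286 to 6766 in lesioned and 6265 to 8773 in control prefrontal cortex, and 12875 to 20597 in lesioned and 14255 to 18016 in control striatum. The median of this list was -0.09 in prefrontal cortex, with 7 of 9 below 0, and 0.27 in striatum, with 8 of 9 above 0. Of the 9, 1 fell in prefrontal cortex. Of the other lists there, 1 of 8 genes of microglia and 2 of 4 of blood cells fell, and 1 of 6 of neurons and 1 of 6 of cortical excitatory neurons rose. None was called there among 8 genes of mural cells, 6 of meningeal fibroblasts, 10 of projection neurons, 8 of choroid plexus and ependyma and 7 of hypothalamic and bordering neurons. In striatum none of these lists had a called gene, but 4 lists had sums without overlap. Taken singly, 25.7% of all genes did not overlap there. Projection neuron genes summed to 3828 to 9487 in lesioned and 1813 to 2863 in control striatum, and microglial genes to 417 to 524 in lesioned and 333 to 411 in control striatum. Genes of meningeal fibroblasts summed to 16.8 to 28.4 in lesioned and 50.5 to 69.9 in control striatum, and those of choroid plexus and ependyma to 50.8 to 68.7 in lesioned and 78.9 to 2125 in control striatum. The part of these cells in the levels of Slc16a1 and Bsg was not tested.

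**Figure D3:**
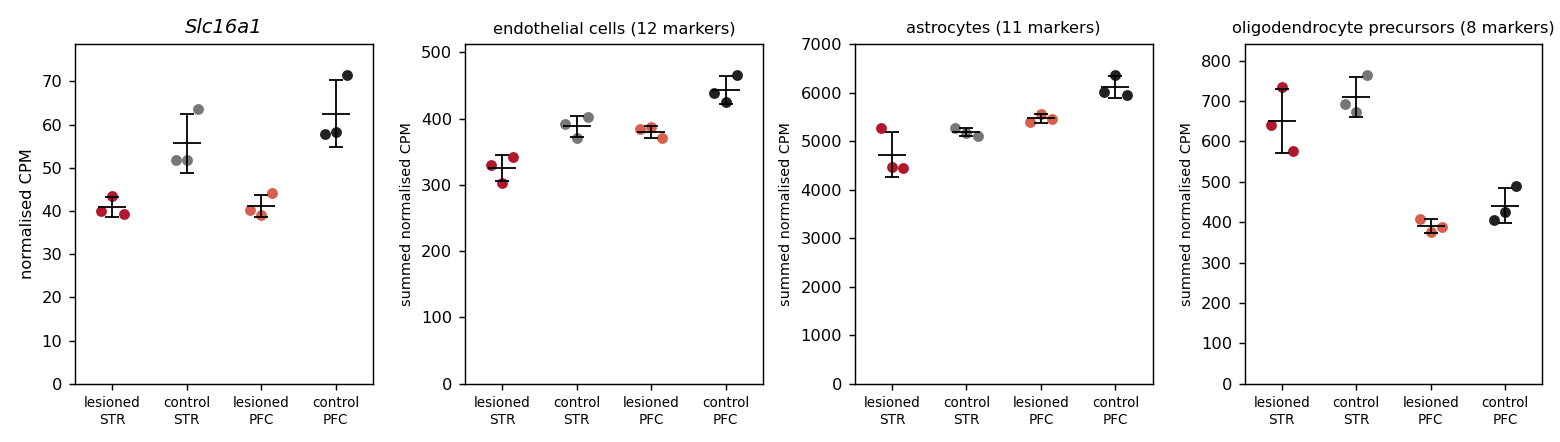
Normalised CPM of Slc16a1 and summed normalised CPM of the marker genes of endothelial cells, astrocytes and oligodendrocyte precursors with committed cells, in the 12 libraries; lines with bars are means ± SD of 3 libraries. Endothelial sums of lesioned and control libraries were apart in both regions, astrocyte sums in prefrontal cortex and precursor sums in neither.

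Slc16a7, Ldha and Slc2a3 were lower in striatum than in prefrontal cortex in lesioned mice and in controls. Slc16a7 was lower in striatum than in prefrontal cortex, at 41.2 ± 5.24 and 90.3 ± 5.26 normalised CPM in lesioned mice (log2 fold change -1.13, SE 0.10, adjusted p = 1.15e-04) and 35.1 ± 6.48 and 85.0 ± 11.2 in controls (-1.28, SE 0.15, adjusted p = 2.54e-04, edgeR's quasi-likelihood test; SD, n = 3 each). Ldha was lower in striatum by similar steps in lesioned mice (-0.82, SE 0.07, adjusted p = 1.15e-04) and controls (-0.85, SE 0.07, adjusted p = 6.81e-05). Slc2a3 was lower as well, with -0.37 (SE 0.09, adjusted p = 0.0101) in lesioned mice and -0.41 (SE 0.06, adjusted p = 0.00101) in controls. For these 3 genes every striatal library lay below every prefrontal one.

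Ldhb was lower in striatum in controls (-0.30, SE 0.08, adjusted p = 0.0131), a call lost without control prefrontal library 3 (-0.26, adjusted p = 0.0542). In lesioned mice its value was -0.12 (SE 0.07, adjusted p = 0.188), called without lesioned striatal library 1 (-0.17, adjusted p = 0.0194). Bsg was lower in striatum in lesioned mice (-0.24, SE 0.07, adjusted p = 0.0258). That call was lost without lesioned prefrontal library 1 (adjusted p = 0.0837), 2 (0.113) or 3 (0.0625), and with the GC and length correction (-0.17, adjusted p = 0.0575). In controls Bsg was at -0.18 (SE 0.07, adjusted p = 0.0884), and its call appeared without control striatal library 2 (-0.20, adjusted p = 0.0349). Slc16a3 was higher in striatum in lesioned mice (0.63, SE 0.16, adjusted p = 0.0166), but not without lesioned prefrontal library 1 (0.50, adjusted p = 0.0589) or 2 (0.64, adjusted p = 0.0537) or lesioned striatal library 3 (0.62, adjusted p = 0.0520), nor with limma-voom (0.65, adjusted p = 0.0590) or all 12 libraries (0.63, adjusted p = 0.0523). In controls Slc16a3 was at 0.76 (SE 0.30, adjusted p = 0.0714) and was called without control striatal library 2 (0.89, adjusted p = 0.0230) or control prefrontal library 3 (1.02, adjusted p = 0.0444), with limma-voom (0.89, adjusted p = 0.0249) and with all 12 libraries (0.77, adjusted p = 0.0291).

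Slc16a1 and Slc2a1 did not pass between regions. Slc16a1 had -0.01 (SE 0.08, adjusted p = 0.956) in lesioned mice and -0.17 (SE 0.11, adjusted p = 0.266) in controls. Slc2a1 had -0.15 (SE 0.07, adjusted p = 0.110) in lesioned mice and -0.05 (SE 0.08, adjusted p = 0.682) in controls. In all, 5 of 8 members were called between regions in lesioned mice, 1 higher and 4 lower, against 44.5% of all genes (22.2% higher and 22.3% lower). In controls 4 of 8 were called, all lower, against 41.8% (20.9% higher and 20.9% lower). Libraries did not overlap between regions in 7 members in lesioned mice, 6 lower and 1 higher, against 57.8% of all genes (29.0% lower and 28.8% higher). In controls they did not overlap in 6 members, 5 lower and 1 higher, against 54.9% (27.5% lower and 27.4% higher). Pan-neuronal genes moved with the region: 5 of 6 were called lower in striatum in lesioned mice and 5 of 6 in controls. The 9 genes of mature oligodendrocytes were all called higher in striatum in lesioned mice and in controls. The part of these cells, and of the tissue that borders the striatum, in the regional levels was not tested.

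**Figure D4:**
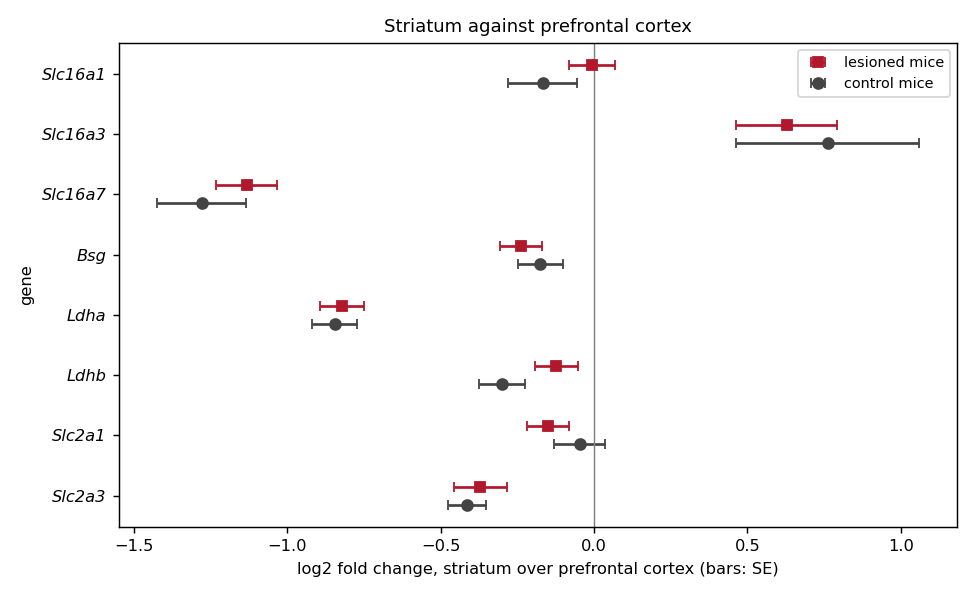
Log2 fold change of striatum over prefrontal cortex for each gene in lesioned mice (squares) and control mice (circles), with bars of 1 SE. Slc16a7, Ldha and Slc2a3 lay below 0 in both, and Slc16a3 above 0.

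Ldha made up 33.5 ± 0.93% of the counts of both subunits in lesioned striatum and 45.0 ± 0.85% in lesioned prefrontal cortex. In control mice it made up 34.6 ± 2.97% in striatum and 43.6 ± 0.83% in prefrontal cortex. These counts were not divided by length, so the shares compare libraries and do not give the make-up of the enzyme. The libraries did not overlap between regions, and the exact permutation p was 0.1 for each, the smallest possible (two-sided, n = 3 each). Per kilobase of transcript, the members had 1 order in each of the 4 groups: Ldhb, Bsg, Ldha, Slc2a3, Slc2a1, Slc16a1, Slc16a7 and Slc16a3. The levels in lesioned prefrontal cortex ran from 312 ± 8.21 normalised CPM per kilobase for Ldhb through 9.29 ± 0.59 for Slc16a1 and 8.22 ± 0.48 for Slc16a7 to 0.826 ± 0.14 for Slc16a3 (SD, n = 3). Neighbours in the order did not overlap, other than Ldhb and Bsg in control striatum. With the length of all exons in place of the longest coding transcript, Slc2a1 and Slc2a3 changed places. Per kilobase, Slc16a1 exceeded Slc16a7 by 1.13 times in lesioned and 1.83 times in control prefrontal cortex, and by 2.46 times in lesioned and 3.94 times in control striatum. In normalised CPM, not divided by length, Slc16a7 had 90.3 and Slc16a1 41.1 in lesioned prefrontal cortex, and 85.0 and 62.6 in controls. In striatum they had 41.2 and 40.9 in lesioned libraries and 35.1 and 55.7 in controls. The order of these genes in prefrontal cortex and in lesioned striatum thus rests on the division by length. Only in control striatum was Slc16a1 above Slc16a7 without it.

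Of 81 other genes of glucose and lactate handling, 80 were tested and 6 were called in prefrontal cortex, 4 higher and 2 lower, beside 5.53% of all genes. Their median log2 fold change was 0.006, against -0.005 for all genes. With a library left out 2 to 6 of the 80 were called in prefrontal cortex, beside 1.36% to 6.64% of all genes. With limma-voom 3 were called there, beside 2.88%, and with all 12 libraries 1, beside 0.206%. Glycogen phosphorylase of muscle type, Pygm, which frees glucose units from glycogen and in brain is found in astrocytes, fell. It was at 30.0 ± 0.80 normalised CPM in lesioned prefrontal cortex and 42.4 ± 0.42 in controls (-0.51, SE 0.06, adjusted p = 6.97e-04). In striatum Pygm had 23.5, 29.0 and 26.9 normalised CPM in lesioned libraries, against 38.9, 33.2 and 37.5 in controls, without overlap and without passing (-0.47, SE 0.10, adjusted p = 0.168). The regulatory subunit of its kinase, Phkb, rose in prefrontal cortex (0.39, SE 0.06, adjusted p = 0.0033).

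Among glycolytic enzymes 2 of 17 rose in prefrontal cortex and 0 fell, both of them subunits of phosphofructokinase. Pfkl had 202 ± 4.88 normalised CPM in lesioned libraries and 169 ± 6.49 in controls (0.24, SE 0.05, adjusted p = 0.0112), and Pfkp 384 ± 8.12 in lesioned libraries and 339 ± 14.1 in controls (0.17, SE 0.05, adjusted p = 0.0454). Of 14 genes of pyruvate entry into mitochondria, 1 rose and 1 fell in prefrontal cortex: the pyruvate dehydrogenase phosphatase Pdp1 (0.22, SE 0.06, adjusted p = 0.0374) and the complex component Pdhx (-0.25, SE 0.06, adjusted p = 0.0385). No gene was called among 7 other sugar carriers, 11 other carriers of the SLC16 family with their ancillary proteins, or 16 hypoxia-inducible genes and factors. The smallest p of these lists in prefrontal cortex were those of Slc2a6 (-0.14, SE 0.09), Slc16a4 (-0.44, SE 0.19) and Ddit4 (0.29, SE 0.13).

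In striatum edgeR called 0 of the 80, and 20 had an unadjusted p below 0.05, beside 17.2% of all genes. DESeq2 called 3 of the 80, beside 3.60% of all genes, and limma-voom 2, beside 1.27%. The medians of the 6 lists lay between -0.36 for the other SLC16 carriers and 0.09 for hypoxia-inducible genes. The smallest p of each list were those of the mutase Pgam1 (-0.21, SE 0.07), the sugar carrier Slc2a12 (-0.91, SE 0.38), Slc16a6 (0.75, SE 0.22), the pyruvate dehydrogenase kinase Pdk4 (0.68, SE 0.13), Pygm and the lactate receptor Hcar1. Pdk4 had 13.9, 13.7 and 12.9 normalised CPM in lesioned striatum, against 7.23, 8.28 and 9.54 in controls, without overlap (adjusted p = 0.147). Hcar1 was sparse, with 4, 3 and 1 counts in lesioned striatum, against 10, 13 and 20 in controls (adjusted p = 0.172).

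**Figure D5:**
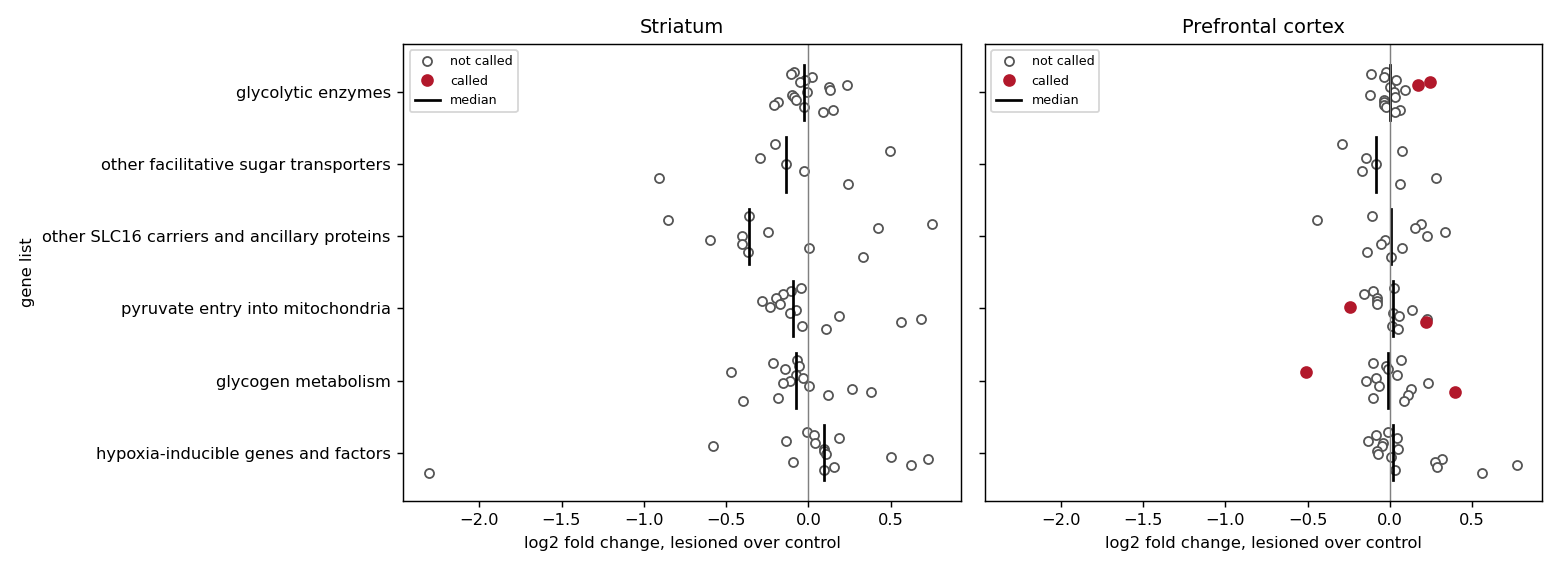
Log2 fold change of lesioned over control libraries for 80 other genes of glucose and lactate handling in striatum (left) and prefrontal cortex (right), by list. Filled points were called at an adjusted p below 0.05, open points were not, and bars are list medians; 6 genes were called in prefrontal cortex and 0 in striatum.

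Between regions, 38 of the 80 were called in lesioned mice (13 higher and 25 lower in striatum) and 37 in controls (12 higher and 25 lower), or 47.5% in lesioned mice and 46.2% in controls, beside 44.5% and 41.8% of all genes. Glycolytic enzymes were mostly lower in striatum, 10 of 17 in lesioned mice and 9 of 17 in controls, with 1 higher in each. In controls the hexokinase Hk1 was at 303 ± 18.3 normalised CPM in striatum and 475.5 ± 21.5 in prefrontal cortex (-0.65, SE 0.07, adjusted p = 2.54e-04). The kinase Pdk1 was at 46.2 ± 4.34 in striatum and 93.3 ± 5.16 in prefrontal cortex (-1.02, SE 0.09, adjusted p = 6.41e-05). Also lower in control striatum were Pfkp (-0.46), the phosphatase Pdp1 (-0.78), the sugar carrier Slc2a6 (-0.94), the ancillary protein Nptn (-0.59), Slc16a14 (-0.84) and the prolyl hydroxylase Egln3 (-1.61). Higher were the brain-type glycogen phosphorylase Pygb (0.45), the phosphoglucomutase Pgm1 (0.79), the hypoxia-induced Ndrg1 (0.82) and the sugar carrier Slc2a12 (1.57), whose adjusted p of 0.00815 was the largest of these 12 genes.

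The genes whose levels ran most like Slc16a1 over the 12 libraries, each centred on its region, were 1500009C09Rik (r = 0.9503), Arhgef19 (0.945), Parvb (0.935), Sat1 (0.924) and Slc40a1 (0.920), among 10244 genes of at least 10 normalised CPM. Among the members Bsg was nearest to Slc16a1 (r = 0.845) and Slc16a7 farthest (r = -0.615). The genes most like Bsg were Mrpl49 (0.956), Apcdd1 (0.953) and Apoe (0.951), and those most like Slc16a7 were Ptprj (0.972), Cacna2d1 (0.958) and Prickle2 (0.956). For the other members the nearest were Commd10 for Slc16a3 (0.876), Lgi1 for Ldha (0.854), Rnf5 for Ldhb (0.914), Txlng for Slc2a1 (0.946) and Nudcd3 for Slc2a3 (0.963). These Pearson correlations describe libraries that share the lesion contrast and the normalisation, and carry no test.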

How the data were processed

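Per the labels' protocols, mRNA from 500 ng of total RNA (integrity number 8.9 or more) gave stranded libraries, sequenced from both ends at 101 bp. The authors deposited counts per gene symbol, without normalisation. The submitters' processing notes list STAR 2.7.1a, featureCounts and mm10. They do not name the annotation, the strand setting or the treatment of multi-mapping reads. Overlap with other transcripts was checked in GENCODE M21 (GRCm38): Slc16a1, Slc16a3, Bsg and Slc2a3 share 0% of their 101-base words with other genes, and Ldhb shares 6.19%, so that its level is uncertain to that extent. Antisense genes overlap Slc16a7 and Slc2a1, whose reads cannot be told apart if strand was not used.

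In the table, 1830 symbols hold only multiples of 11, and these are the symbols at 0 in lesioned prefrontal library 1 and above 0 elsewhere (0.144% of counts). No member is among them. They were left out of the main tests.

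The quasi-likelihood test was edgeR's (version 4.0.16, R 4.3.3) with TMM factors and filterByExpr, run on the 6 libraries of each contrast, and on all 12 for the difference between regions. A call is an adjusted p (Benjamini-Hochberg over 14545 genes) below 0.05. SE is the absolute log2 fold change over the root of F. Normalised CPM are counts scaled to the TMM-adjusted library size over 12 libraries. The fits were tested on simulated data with changes in the lesioned prefrontal libraries alone, so recovery of changes in striatum was not simulated. Each gene was otherwise simulated around 1 mean in all groups, with a spread estimated over all 12 libraries. The coefficient of variation of that fit was 11.3%, against 5.81% in prefrontal cortex and 15.1% in striatum. The simulation thus does not show how the fits perform at the spread of either region. Alternatives were RLE factors, DESeq2 1.42.0, limma-voom (limma 3.58.1) with weights by region, no filter, at least 1 CPM in 3 libraries, all 12 libraries, a replicate block, a GC and length correction, the multiples of 11 kept, and each library left out. Leaving out 2 striatal libraries together and the exon length were added after seeing the data. Likeness used log2 CPM with a prior count of 2.

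The members, gene lists and tests were chosen with earlier results of these data known. Named were all members and, of each list, up to 3 called genes of smallest p in each lesion contrast and up to 2 between regions in controls, or the gene of smallest p where none was called. Marker genes were named after their values were seen.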

Additional observations from a re-analysis of the deposited data

How the results depend on the processing

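Of 672 recomputed fold changes of the 8 members in 5 comparisons, 653 kept their direction and 621 also their side of the threshold. The prefrontal log2 fold change of Slc16a1, which chose the members, ranged from -0.67 to -0.51 over 15 alternatives, as a description. Members called in prefrontal cortex were 1 in place of 2 with limma-voom, all 12 libraries, the replicate block or the multiples of 11 kept, and 1 to 2 when each library was left out. Genes of the other lists called there were 3 with limma-voom, 1 with all 12 libraries, 3 with the multiples of 11 kept and 2 to 6 with a library left out. Of all genes there, 2.88% were called with limma-voom, 0.206% with all 12 libraries and 4.34% with the replicate block. With the multiples of 11 kept 3.31% were called, and 1.36% to 6.64% with a library left out. In striatum DESeq2 called 1 member and 3 list genes, limma-voom 0 and 2, and the fit of all 12 libraries 2 and 10. Of all genes there, DESeq2 called 3.60%, limma-voom 1.27% and the fit of all 12 libraries 7.15%. Between regions in lesioned mice 3 to 6 members were called with a library left out, beside 31.8% to 52.8% of all genes. For the difference between regions, 1 list gene was called with DESeq2 and without the 2 striatal libraries, and 0 to 1 with a library left out. Of all genes, 0.804% were called with DESeq2, 0.690% without the 2 striatal libraries and 0% to 1.17% with a library left out.

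With a library left out, log2 fold changes ranged from -0.0188 to 0.164 for Slc16a7 in prefrontal cortex, -0.0446 to 0.0480 for Ldha in striatum, -0.113 to 0.00559 for Slc2a1 between regions in controls and -0.0542 to 0.0456 for Slc16a1 between regions in lesioned mice. The difference between regions ranged from -0.406 to 0.169 for Slc16a3, -0.0126 to 0.0718 for Ldha and -0.0222 to 0.121 for Slc2a3. Striatal Ldha was at 0.000831 with limma-voom, 0.000440 with all 12 libraries and 0.0269 with the GC and length correction. Without the 2 striatal libraries, Ldha was at 0.0227 and Ldhb at -0.0340 in striatum, Slc16a1 at 0.0108 between regions in lesioned mice, and the difference between regions at 0.0120 for Bsg and -0.0255 for Slc2a3. With a library left out, the striatal difference in the Ldha share ranged from -2.18 to 0.575 points, above 0 only without control striatal library 2. The causes were not tested.

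Over all genes, calls in prefrontal cortex were 804, against 419 with limma-voom, 30 with all 12 libraries, 508 with the multiples of 11 kept and 200 to 975 with a library left out. In striatum they were 4, against 523 with DESeq2, 185 with limma-voom, 1040 with all 12 libraries, 59 without the 2 striatal libraries, 0 with the block or the multiples of 11 kept and 0 to 2 with a library left out. For the difference between regions they were 12, against 117 with DESeq2, 0 with limma-voom, 6 with the block, 5 with the multiples of 11 kept, 101 without the 2 striatal libraries and 0 to 172 with a library left out. Same-numbered libraries of striatum and prefrontal cortex, which could come from the same mouse, correlated at -0.004 to 0.09 in their deviations. Same-numbered lesioned and control libraries correlated at -0.11 to 0.03. The best prefrontal partner had the same number for control striatal libraries 1 and 3 and lesioned striatal libraries 1 and 2, but not for control library 2 and lesioned library 3. The numbers were not taken as pairs, and pairing by mouse between regions is not excluded. The replicate block gave 631 calls in prefrontal cortex and 0 in striatum, and with it Bsg was not called in prefrontal cortex (adjusted p = 0.0713) or between regions in lesioned mice (-0.24, adjusted p = 0.0670). Low counts limit what could be detected for Slc16a3 and Hcar1.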

Other observations

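Hcar1, the lactate receptor, had 4, 3 and 1 counts in lesioned striatum, against 10, 13 and 20 in control striatum, and 37, 34 and 28 counts in lesioned prefrontal cortex, against 20, 24 and 20 in control prefrontal cortex. The libraries did not overlap in either region, lower after the lesion in striatum and higher in prefrontal cortex. The difference between regions in the log2 fold change was -2.86 (SE 0.52) and did not pass in edgeR's quasi-likelihood test (adjusted p = 0.09998). With 1 to 3 counts in 2 libraries, this rests on little depth. It was singled out after its values were seen.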
